A study of Mus musculus with 12 samples.

Results

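The genes described here handle bile acids in the intestine: the bile acid receptor FXR (Nr1h4), its target SHP (Nr0b2), the apical uptake transporter ASBT (Slc10a2), the cytosolic carrier Fabp6, the basolateral exporter subunits OSTα (Slc51a) and OSTβ (Slc51b), the multidrug resistance proteins Abcc3 and Abcc2, and the hormone Fgf15. These 9 genes were taken by symbol from the deposited gene tables, which together list 18929 genes. All 9 were listed in the table of the Hdac1 comparison and 8 in that of the Hdac2 comparison, where Fabp6 has no row and was not analysed here. The data are RNA-Seq counts from murine jejunal enteroids, 3-dimensional epithelial cultures grown from crypts, kept for 5 days in ENR medium (EGF, Noggin and R-spondin). There were 4 libraries each of control, Hdac1-deficient and Hdac2-deficient enteroids. The mutants carried floxed Hdac1 or Hdac2 alleles, which encode the class I histone deacetylases HDAC1 and HDAC2, deleted by a villin-Cre transgene that is active in intestinal epithelial cells. The study names the controls villin-Cre in its results and wild-type in its methods, so whether they carried the transgene is unclear. All mice were of a mixed C57BL/6J, 129SV and CD1 background. Their age is not given in the sources used here. Per the methods, crypts came from 1 mouse of a genotype. The 4 libraries of 1 genotype may therefore be cultures of 1 line, the p-values may measure only the spread between such cultures, and the genotype cannot be told apart from the mouse.

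Bile acids are made in the liver, released into the gut and taken back up by enterocytes, mostly in the ileum, where ASBT brings them in from the lumen, Fabp6 carries them through the cytosol and the OSTα/OSTβ dimer releases them to the blood side. Inside the cell they activate FXR, a nuclear receptor that binds DNA with its partner RXR and induces SHP, OSTα, OSTβ, Fabp6 and Fgf15. Fgf15 travels to the liver and lowers bile acid synthesis there. The jejunum normally has little ASBT and Fabp6, and its factor GATA4 is known to hold the ileal programme down.

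Library depth ran from 20693200 to 30658628 counts, and the group medians were 29105201 (control), 28662159 (Hdac1-deficient) and 24595010.5 (Hdac2-deficient). A floor of 3 counts corresponded to 0.0972 to 0.145 CPM (counts scaled to a common library size), for counting error only. Hdac1 stood at 90.5 ± 2.87 CPM (SD, n = 4) in control and 4.23 ± 0.841 CPM in Hdac1-deficient enteroids, and Hdac2 at 137 ± 4.39 CPM in control and 75.9 ± 2.84 CPM in Hdac2-deficient enteroids. The counts span whole genes and may hold reads on exons outside a deletion. Coverage per exon was not examined, and what part of the remaining counts such reads make up was not tested. Enterocyte markers were present in every library, with summed levels of 6679 to 7384 CPM (control), 13600 to 14870 CPM (Hdac1-deficient) and 11200 to 12470 CPM (Hdac2-deficient). At an adjusted p of at most 0.05 (edgeR), all 9 enterocyte markers rose in both mutants and all 5 stem cell markers fell. Of all tested genes, 32.7% rose and 31.9% fell in Hdac1-deficient and 31.4% rose and 30.9% fell in Hdac2-deficient enteroids. The stem cell markers summed to 3552 to 3764 (control), 2010 to 2343 (Hdac1-deficient) and 1682 to 1874 CPM (Hdac2-deficient). In such bulk samples a change in the number of cells of a type cannot be told apart from a change in the RNA of each cell. The part of these shifts in the values below was not tested. Of 7 markers of blood, stromal and endothelial cells, 3 were listed, and their summed level was at most 0.727 CPM in any library. Protein-coding genes of chromosome 19 had median log2 differences from control of -0.53 (Hdac1-deficient) and -0.52 (Hdac2-deficient), against 0.01 and 0.02 for those of the other autosomes, which bears on Abcc2 alone among the 9 genes.

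The first question was how much of each gene these jejunal cultures contained. Levels between genes were compared as CPM per kilobase of exon. The length counted every annotated exon base of a gene, 8532 for Abcc2 and 5698 for Abcc3. Which transcripts were expressed was not examined, so an order between genes holds for that length only. In control enteroids the exporters Abcc2, at 37.6 ± 2.81, and Abcc3, at 23.5 ± 1.56 CPM per kilobase, were the highest of the 9. Nr1h4 followed at 11.97 ± 0.478, then Slc51a at 6.99 ± 0.622, Slc51b at 2.78 ± 0.215 and Nr0b2 at 1.94 ± 0.291 CPM per kilobase. The ileal genes closed the order, with Fgf15 at 1.02 ± 0.183, Slc10a2 at 0.2 ± 0.0447 and Fabp6 at 0.0569 CPM per kilobase. In control no neighbouring pair in this order overlapped between libraries. The place of Abcc2 at the head of the control order stands beside the shift of chromosome 19 given above, whose part in it was not tested. The uptake transporter was below both subunits of the basolateral exporter in every group.

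**Figure D1:**
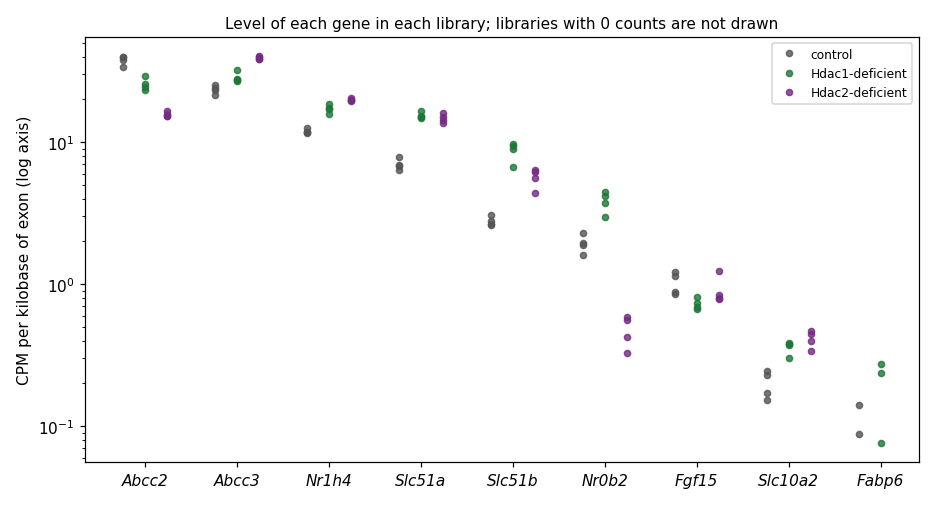
Level of each gene in CPM per kilobase of exon on a log axis, 1 point per library, coloured by group and ordered by the control mean. Abcc2 headed the order in control at 37.6 CPM per kilobase and Slc10a2 and Fabp6 closed it, while Abcc3 had the highest mean per kilobase in both mutants. Its libraries overlapped those of Abcc2 in Hdac1-deficient enteroids.

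The order changed in the mutants. In Hdac1-deficient enteroids Abcc3 (28.6 ± 2.29 CPM per kilobase) stood above Abcc2 (25.7 ± 2.55), although their libraries overlapped, as did those of Nr1h4 (17.2 ± 1.15) and Slc51a (15.4 ± 0.791). In Hdac2-deficient enteroids Abcc3 reached 39.2 ± 0.999 CPM per kilobase, Nr1h4 stood second at 19.9 ± 0.489, and Abcc2 came next at 15.7 ± 0.553, overlapping with Slc51a at 14.7 ± 1.03. Nr0b2 moved from the sixth place to the seventh there, at 0.473 ± 0.122 CPM per kilobase, with libraries overlapping those of Slc10a2 at 0.411 ± 0.057.

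The second question was which of the genes responded to loss of either deacetylase. With edgeR's quasi-likelihood F test, 8 of the 9 genes had enough counts to be tested, and calls required a change of more than 2-fold beside an adjusted p no higher than 0.05. In Hdac1-deficient enteroids Slc51a and Slc51b were called higher and no member lower, 2 of 8 genes against 10.6% of all 14246 tested genes (6.87% higher and 3.71% lower). At the adjusted p alone 6 of the 8 rose and 2 fell, against 64.6% of all tested genes that passed (32.7% higher and 31.9% lower), and all 8 had groups that did not overlap, against 58.5%. In Hdac2-deficient enteroids Slc10a2, Slc51a and Slc51b were called higher and Nr0b2 and Abcc2 lower, 5 of 8 against 8.3% of 14007 tested genes (5.45% higher and 2.84% lower). There 5 genes rose and 2 fell at the adjusted p alone, against 62.3% of all (31.4% higher and 30.9% lower), and 7 did not overlap, against 56.1%. Slc10a2 and Slc51b lay just past the 2-fold limit, and the count called higher dropped from 3 to 1 without control replicate 1. The falls of Abcc2 stand beside the shift of its chromosome given above. With that chromosome's median subtracted, a step added after the values were seen, Abcc2 stood at -0.01 (Hdac1-deficient) and -0.74 (Hdac2-deficient), within the 2-fold limit. The median log2 fold change of the 8 genes was 0.68 and 0.74 in the 2 mutants, beside -0.004 over all tested genes in either comparison. Both comparisons share the control libraries.

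**Figure D2:**
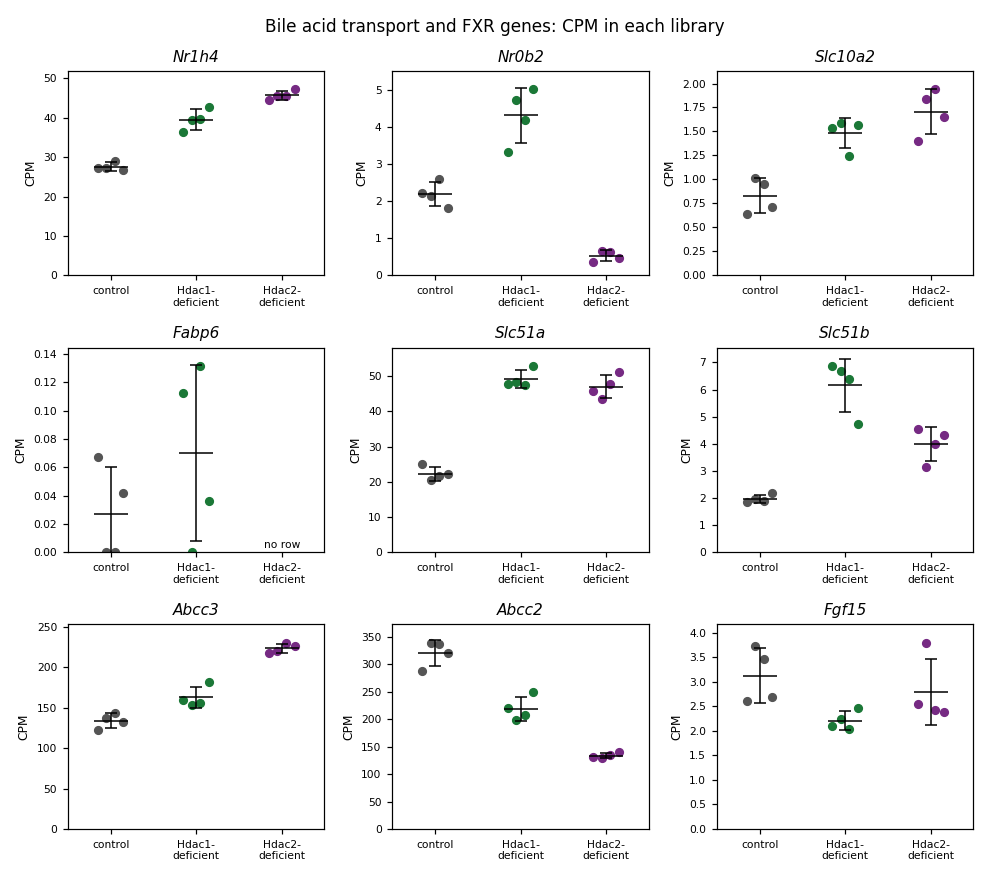
CPM of the 9 genes in each library, with points for libraries, a horizontal line for the group mean and bars for the SD (n = 4), each panel on its own axis from 0. Nr0b2 lies at 3.34 to 5.02 CPM in Hdac1-deficient and 0.368 to 0.664 CPM in Hdac2-deficient enteroids, on opposite sides of the control libraries, and Fabp6 has no row for the Hdac2-deficient libraries.

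Nr1h4 (ENSMUSG00000047638, GRCm38 chr10:89454234-89533585, minus strand), the receptor itself, rose in both mutants. Control libraries held 27.2, 27.2, 29.2 and 26.6 CPM. Hdac1-deficient libraries held 36.3, 39.4, 39.7 and 42.8 CPM, and Hdac2-deficient libraries 44.5, 45.6, 45.6 and 47.2 CPM. The 3 groups did not overlap and stood in that ascending order. The log2 fold change was 0.53 (SE 0.05, adjusted p = 2.1e-08) for Hdac1 and 0.74 (SE 0.04, adjusted p = 4e-12) for Hdac2, both under the 2-fold limit. Tested directly, Hdac1-deficient enteroids were lower than Hdac2-deficient ones by a log2 difference of -0.21 (SE 0.05, adjusted p = 0.00051). Rxra, which encodes an RXR partner of FXR, rose with it, from 106 ± 1.82 CPM to 154 ± 6.2 CPM and 137 ± 6.09 CPM (log2 0.55 and 0.37, adjusted p = 3.7e-11 and 3.8e-09), and its direct difference had the other sign (0.17, adjusted p = 0.00022).

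Nr0b2 (ENSMUSG00000037583, chr4:133553376-133556536, plus strand) encodes SHP, a nuclear receptor without a DNA-binding domain that represses other nuclear receptors, including LRH-1 (Nr5a2). It rose in Hdac1-deficient and fell in Hdac2-deficient enteroids. The control libraries held 2.21, 2.15, 2.61 and 1.81 CPM. The Hdac1-deficient libraries held 3.34, 4.73, 4.2 and 5.02 CPM, all above control. The Hdac2-deficient libraries held 0.368, 0.664, 0.63 and 0.477 CPM, all below control and resting on 10 to 17 counts each. No group overlapped with another. The log2 fold change was 0.98 (SE 0.14, adjusted p = 5.2e-06), a 1.97-fold increase just under the limit for a call, in Hdac1-deficient enteroids. It was -2.04 (SE 0.22, adjusted p = 4.8e-08), or 0.243 of the control level, in Hdac2-deficient enteroids. The direct difference between the mutants was 8.12-fold (log2 3.02, SE 0.2, adjusted p = 1.3e-12), and Nr0b2 was the 1 member called there, where 5.62% of 14510 tested genes were called (2.74% higher and 2.89% lower).

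Nr0b2 lies 4.01 Mb from Hdac1 on chromosome 4, so the genes around Hdac1 were described as well. The 130 other tested protein-coding genes within 5 Mb of Hdac1 had a median log2 difference of 0.01 in Hdac1-deficient enteroids, with 5 called higher and 1 lower (4.62%), and -0.03 in Hdac2-deficient enteroids, with 7 higher and 2 lower (6.92%). Nr5a2, named outside the rule given in the processing section, rose in Hdac1-deficient enteroids (29.4 ± 1.85 to 43.1 ± 2.16 CPM, log2 0.56). It was among 7 of 13 listed transcription factors of bile acid genes that rose there at the adjusted p. In Hdac2-deficient enteroids Nr5a2 stood at 30.6 ± 1.34 CPM (log2 0.06, adjusted p = 0.28), with a direct log2 difference of 0.49 (adjusted p = 5.7e-09). LRH-1 is a known activator of Nr0b2 through sites that hold the letters TCAAGG, and the 250 bases before the RefSeq start of Nr0b2 (GRCm38.p6 chr4:133553126-133553375, plus strand) are shown because this gene parted the mutants. Capitals mark each TCAAGG and a CACGTG, an E-box, both searched on both strands and neither overlapping the other. These 2 motifs were picked after the sequence had been read.

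Nr0b2: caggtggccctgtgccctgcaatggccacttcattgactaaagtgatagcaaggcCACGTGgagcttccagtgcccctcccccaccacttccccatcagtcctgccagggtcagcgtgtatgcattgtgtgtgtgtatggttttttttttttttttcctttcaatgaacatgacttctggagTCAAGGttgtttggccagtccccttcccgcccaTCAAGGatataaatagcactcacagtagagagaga

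The window held 2 copies of TCAAGG, as did 0.922% of all 32851 RefSeq promoters over the same length, and 1 CACGTG, held at least once by 6.02%. A match is a description of letters only. Whether Nr5a2 or these sites have a part in the changes of Nr0b2 was not tested.

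Slc10a2 (ENSMUSG00000023073, chr8:5083219-5105351, minus strand), the uptake transporter, rose in both mutants from a low level. Control libraries held 0.636, 1.02, 0.958 and 0.714 CPM, or 17 to 29 counts. Hdac1-deficient libraries held 1.54, 1.59, 1.25 and 1.56 CPM, and Hdac2-deficient libraries 1.4, 1.84, 1.94 and 1.65 CPM. Every mutant library was above every control library, while the mutants overlapped with each other. The log2 fold change was 0.83 (SE 0.2, adjusted p = 0.001) for Hdac1 and 1.03 (SE 0.2, adjusted p = 0.00018) for Hdac2. The direct difference of -0.19 had a 95% interval from -0.54 to 0.15 and did not pass (adjusted p = 0.4). Maf, which encodes c-Maf, a known activator of Slc10a2, stood at 10.6 ± 0.461 CPM in control and rose to 21.7 ± 2.23 and 23.4 ± 1.51 CPM (log2 1.04 and 1.15, adjusted p = 1.4e-10 and 1.1e-12). Gata4, its known jejunal repressor, stood at 182 ± 1.84, 179 ± 2.31 and 195 ± 4.47 CPM in control, Hdac1-deficient and Hdac2-deficient enteroids, with log2 fold changes of -0.02 (adjusted p = 0.61) and 0.11 (adjusted p = 0.0026).

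Fabp6 (ENSMUSG00000020405, chr11:43596049-43601540, minus strand), the cytosolic bile acid carrier and a strong FXR target in the ileum, was barely detected. The control libraries held 2, 0, 0 and 1 counts and the Hdac1-deficient libraries 3, 0, 4 and 1 counts, at or near the floor of 3. No fold change is given for it, and without the filter on low counts the edgeR test gave an adjusted p of 0.32. A difference was not detectable at this depth. Its promoter is shown because it held 2 sequences that resemble the FXR site, an inverted repeat of AGGTCA and TGACCT with 1 free base between them, searched on both strands, each with 2 mismatches. Capitals mark the match, and both lie on the minus strand of chromosome 11, at chr11:43601764-43601792 and chr11:43601684-43601712 (RefSeq, GRCm38.p6).

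Fabp6 distal: gagcagagAGGTGAATGACCAcactctgt
Fabp6 proximal: tttccttaAGGTGAATAACCTtggggctc

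Of the 7 members with a RefSeq promoter, Fabp6 had the closest match, and 0.959% of all promoters hold one with at most 2 mismatches. The 2 exporter subunits followed with 3 mismatches, a distance that 9.63% of promoters reach, and Nr1h4, Nr0b2, Slc10a2 and Abcc2 had none within 3. Only the 250 bases before the RefSeq start and this form of repeat were searched. A site farther away or of another form would be missed. Of the 250 bases searched for Slc51b, 182 are exon of Slc51b itself in GENCODE M21, whose gene end lies inside the window shown. The bases searched for Abcc2 and Slc10a2 include 116 and 64 of their own exons. The RefSeq start of Nr1h4 lies inside its GENCODE gene span. The windows of the exporter pair are shown for comparison, at chr9:65422940-65422968 and chr16:32487938-32487966, both on the minus strand.

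Slc51b: cattcgtgGGGTCATTCACCCtggactgg
Slc51a: accacgtgAGGACTTTGTCCTtctcttct

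Slc51a (ENSMUSG00000035699, chr16:32474504-32487879, minus strand) encodes the α subunit of the basolateral exporter and rose by nearly the same amount in both mutants. Control libraries held 25.1, 20.4, 21.6 and 22.2 CPM. Hdac1-deficient libraries held 47.7, 48.4, 47.5 and 52.9 CPM, and Hdac2-deficient libraries 45.7, 43.4, 47.7 and 51.2 CPM. All 8 mutant libraries were above the controls, and the mutants overlapped. The increase was 2.21-fold in Hdac1-deficient (log2 1.15, SE 0.06, adjusted p = 6.9e-13) and 2.11-fold in Hdac2-deficient enteroids (log2 1.08, SE 0.06, adjusted p = 8.5e-12). The direct log2 difference was 0.06 (95% interval -0.04 to 0.17, adjusted p = 0.36). Its 250 upstream bases (chr16:32487880-32488129, minus strand) are shown because they hold 3 copies of CACGTG, in capitals. At least 3 copies were found in 20 of 32851 promoters (0.0609%). This motif was picked after sequence had been read, and the share was taken at the number seen here, so it is a description and no test.

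Slc51a upstream: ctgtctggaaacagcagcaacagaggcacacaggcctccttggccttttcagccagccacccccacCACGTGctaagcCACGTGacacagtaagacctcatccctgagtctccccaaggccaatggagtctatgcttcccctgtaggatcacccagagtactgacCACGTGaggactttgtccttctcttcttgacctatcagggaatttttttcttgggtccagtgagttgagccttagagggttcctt

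Slc51b (ENSMUSG00000053862, chr9:65412714-65422955, minus strand) encodes the β subunit, which the dimer needs to reach the membrane. Control libraries held 1.84, 1.97, 1.88 and 2.18 CPM. Hdac1-deficient libraries held 6.86, 6.67, 6.37 and 4.73 CPM, and Hdac2-deficient libraries 4.53, 3.12, 3.98 and 4.34 CPM. The 3 groups did not overlap, with Hdac1-deficient enteroids highest, although their replicate 4 came close to the Hdac2-deficient range. The increase was 3.17-fold (log2 1.66, SE 0.13, adjusted p = 1.1e-09) and 2.05-fold (log2 1.03, SE 0.14, adjusted p = 1.5e-06). In the direct test Hdac1-deficient enteroids were 1.54-fold higher (log2 0.63, SE 0.12, adjusted p = 0.00015). Exons of Slc51a share 567 bases with Pcyt1a on the other strand (17.7% of its exon length) and those of Slc51b 91 bases with Rasl12 (12.8%). The library kit keeps strand, but the strand setting of the counting is not given in the sources used here, and Pcyt1a itself moved by log2 0.62 and 0.84.

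Whether the subunits changed in proportion was asked with the ratio of Slc51b to Slc51a per kilobase in each library. The geometric mean of this ratio was 0.398 (control), 0.56 (Hdac1-deficient) and 0.38 (Hdac2-deficient). In 3 Hdac1-deficient libraries it was 0.605 to 0.649, above every control library (0.331 to 0.444), and in replicate 4 it was 0.403, within the control range. By the exact two-sided permutation test over 4 against 4 libraries, neither Hdac1-deficient enteroids against control (log2 difference 0.49, SE 0.19, p = 0.0857, adjusted p = 0.103 over 6 ratio tests) nor the mutants against each other (0.56, SE 0.18, p = 0.0571, adjusted p = 0.0857) passed. The Hdac2 comparison gave -0.07 (SE 0.14, exact permutation p = 0.571).

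Abcc3 (ENSMUSG00000020865, chr11:94343295-94392997, minus strand) encodes a basolateral exporter of organic anions and conjugated bile acids. Control libraries held 122, 137, 143 and 132 CPM. Hdac1-deficient libraries held 160, 154, 156 and 182 CPM, and Hdac2-deficient libraries 217, 220, 230 and 226 CPM. No group overlapped with another, and the Hdac2-deficient libraries were highest. The log2 fold change was 0.29 (SE 0.06, adjusted p = 4e-04) and 0.75 (SE 0.04, adjusted p = 9.1e-12), and the direct difference was -0.46 (SE 0.05, adjusted p = 1.2e-06).

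Abcc2 (ENSMUSG00000025194, chr19:43782192-43840740, plus strand), the apical counterpart that returns conjugates to the lumen, fell in both mutants. Control libraries held 287, 339, 337 and 322 CPM. Hdac1-deficient libraries held 220, 200, 208 and 249 CPM, and Hdac2-deficient libraries 131, 130, 135 and 140 CPM. The groups did not overlap, and the Hdac2-deficient libraries lay within a range of 130 to 140 CPM. The log2 fold change was -0.54 (SE 0.08, adjusted p = 0.00014) and -1.25 (SE 0.05, adjusted p = 3e-11). The direct difference was 0.71 (SE 0.07, adjusted p = 4.8e-06). Abcc2 lies on chromosome 19, whose tested protein-coding genes had a median of -0.53 over 471 genes in Hdac1-deficient and -0.52 over 461 genes in Hdac2-deficient enteroids, and those within 5 Mb of it had medians of -0.46 over 111 genes and -0.5 over 107 genes in the 2 mutants. The fall of Abcc2 in Hdac1-deficient enteroids was close to the median of its chromosome, and a response of the gene cannot be told apart from that shift. Between the mutants the chromosome's median was 0.02 over 474 genes. With the chromosome's median subtracted, a step added after the values were seen, Abcc2 stood at -0.01 (Hdac1-deficient) and -0.74 (Hdac2-deficient), the latter no longer past the 2-fold limit, and at 0.69 between the mutants.

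**Figure D3:**
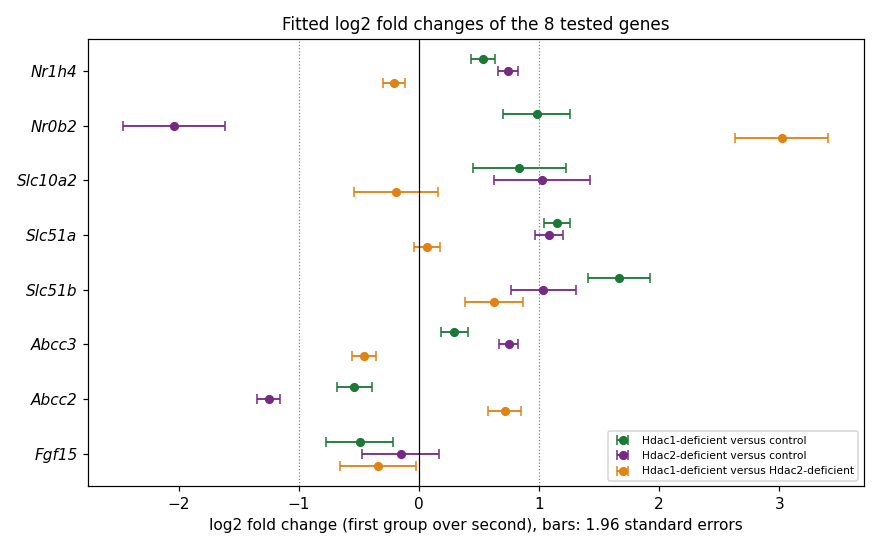
Fitted log2 fold changes of the 8 tested genes with bars for the 95% interval, for each mutant against control and for the mutants against each other, dotted lines marking the 2-fold limit. Nr0b2 lies at 0.98 and -2.04 in the 2 mutants, Slc51a at 1.15 and 1.08, and Abcc2 at -0.54 and -1.25.

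The ratio of basolateral Abcc3 to apical Abcc2 per kilobase separated the groups with little spread. It was 0.605 to 0.638 in control, 1.09 to 1.15 in Hdac1-deficient and 2.42 to 2.54 in Hdac2-deficient libraries. The log2 differences were 0.83 (SE 0.03) and 2.0 (SE 0.02) from control and -1.17 (SE 0.02) between the mutants. Each had an exact two-sided permutation p of 0.0286, the smallest that 4 against 4 libraries can give, and an adjusted p of 0.0572 over the 6 ratio tests. The groups did not overlap for Abcc3 or for Abcc2, and these genes moved in opposite directions in each comparison. Their ratio therefore had to separate the groups, so this p was fixed in advance and adds no support. What part of the differences from control goes with the shift of chromosome 19 was not tested.

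**Figure D4:**
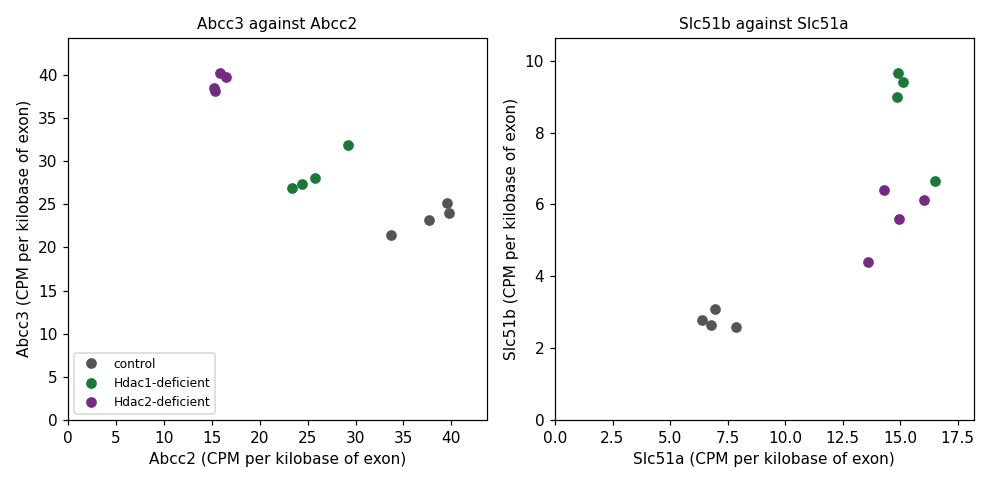
Abcc3 against Abcc2 (left) and Slc51b against Slc51a (right) in CPM per kilobase of exon, 1 point per library, both axes from 0. In the left panel the groups form 3 separate clusters with ratios of 0.605 to 0.638, 1.09 to 1.15 and 2.42 to 2.54, and in the right panel 1 Hdac1-deficient library lies apart from the other 3.

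Fgf15 (ENSMUSG00000031073, chr7:144896531-144900953, plus strand), the enterokine induced by FXR, did not rise in either mutant. Control libraries held 2.61, 3.73, 3.47 and 2.69 CPM, and Hdac1-deficient libraries 2.1, 2.24, 2.04 and 2.47 CPM. Hdac2-deficient libraries held 2.54, 3.79, 2.42 and 2.38 CPM, or 50 to 97 counts. The Hdac1-deficient libraries all lay below control, whereas the Hdac2-deficient libraries overlapped with both other groups and replicate 2 was the highest of all 12. Fgf15 fell by 0.49 on the log2 scale in Hdac1-deficient enteroids (SE 0.14, adjusted p = 0.005). In Hdac2-deficient enteroids the value was -0.15 (95% interval -0.47 to 0.17, adjusted p = 0.43). It moved to -0.34 (adjusted p = 0.069) without Hdac2-deficient replicate 2 and to -0.06 (adjusted p = 0.79) without control replicate 2, and over the 8 fits without 1 library it ranged from -0.34 to -0.06. The direct difference of -0.34 (SE 0.16) did not pass (adjusted p = 0.088). The antisense gene Gm26793 shares 761 bases with its exons (24.9%) and had log2 values of -0.31 (adjusted p = 0.18) and -0.57 (adjusted p = 0.029), so without the strand setting of the counting their reads cannot be told apart.

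Between the mutants, 3 of the 8 tested genes were higher in Hdac1-deficient enteroids (Nr0b2, Slc51b and Abcc2), 2 were lower (Nr1h4 and Abcc3), and Slc10a2, Slc51a and Fgf15 did not pass the test, against 45.9% of all tested genes that passed (22.3% higher and 23.7% lower). The groups did not overlap for 5 of the 8, against 41.8% of all tested genes. Of the known FXR targets, Slc51a and Slc51b rose in both mutants, Nr0b2 moved in opposite directions, and Fgf15 fell in Hdac1-deficient enteroids and did not pass in Hdac2-deficient enteroids.

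Other genes of bile acid handling were described from lists. Among enzymes and ligases of bile acid synthesis and conjugation, 7 of 9 tested genes rose and 1 fell in Hdac1-deficient enteroids (median log2 1.61, against -0.004 over all tested genes), where 32.7% of all tested genes rose and 31.9% fell. In Hdac2-deficient enteroids 6 of 7 rose and 1 fell (median 0.83), against 31.4% and 30.9% of all. In Hdac1-deficient enteroids 5 were called higher and in Hdac2-deficient enteroids 3, where 6.87% and 5.45% of all tested genes were. Slc27a2, a very long-chain acyl-CoA synthetase, rose from 33.4 ± 1.95 to 109 ± 5.89 CPM (log2 1.72, adjusted p = 1.2e-16) and to 69.7 ± 7.51 CPM in Hdac2-deficient enteroids (log2 1.08, adjusted p = 2.1e-08). Slc27a5, the bile acyl-CoA synthetase, rose from 1 to 8 counts to 31 to 37 and 22 to 37 counts per library (log2 2.4 and 2.51, adjusted p = 8.9e-07 and 5.6e-07). Baat, which couples bile acids to taurine or glycine, rose from 5 to 8 counts to 23 to 33 counts in Hdac1-deficient enteroids (log2 2.16, adjusted p = 1.2e-06) and had 5 to 15 counts in Hdac2-deficient enteroids, where it was not tested. Hsd3b7, a sterol dehydrogenase of the pathway, rose by log2 1.61 (adjusted p = 1.4e-09) in Hdac1-deficient enteroids.

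Akr1d1, the steroid 5β-reductase, had 2 counts in all in the control libraries and 29 to 40 in each Hdac1-deficient library, a ratio of 67.6 (exact 95% counting interval 18.4 to 564). In the Hdac2-deficient libraries it had 2 to 4 counts each, a ratio to control of 6.41 (exact 95% counting interval 1.4 to 59.5), and the direct log2 difference between the mutants was 3.35 (SE 0.37, adjusted p = 2.5e-08). Acox2, a peroxisomal side-chain oxidase, rose in both mutants and more in Hdac2-deficient enteroids, at 3.57 ± 0.531, 6.28 ± 0.918 and 12.7 ± 0.697 CPM, with a direct log2 difference of -1.02 (adjusted p = 1.2e-09). Cyp27a1, the mitochondrial sterol 27-hydroxylase, named here after its values were seen, was the member of the list that fell, from 12.8 ± 1.02 to 5.85 ± 0.452 CPM in Hdac1-deficient enteroids (log2 -1.12, adjusted p = 3.3e-10). Cyp7a1 and Cyp8b1, the first and the side branch enzymes of the classical hepatic pathway, were not listed in either table.

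**Figure D5:**
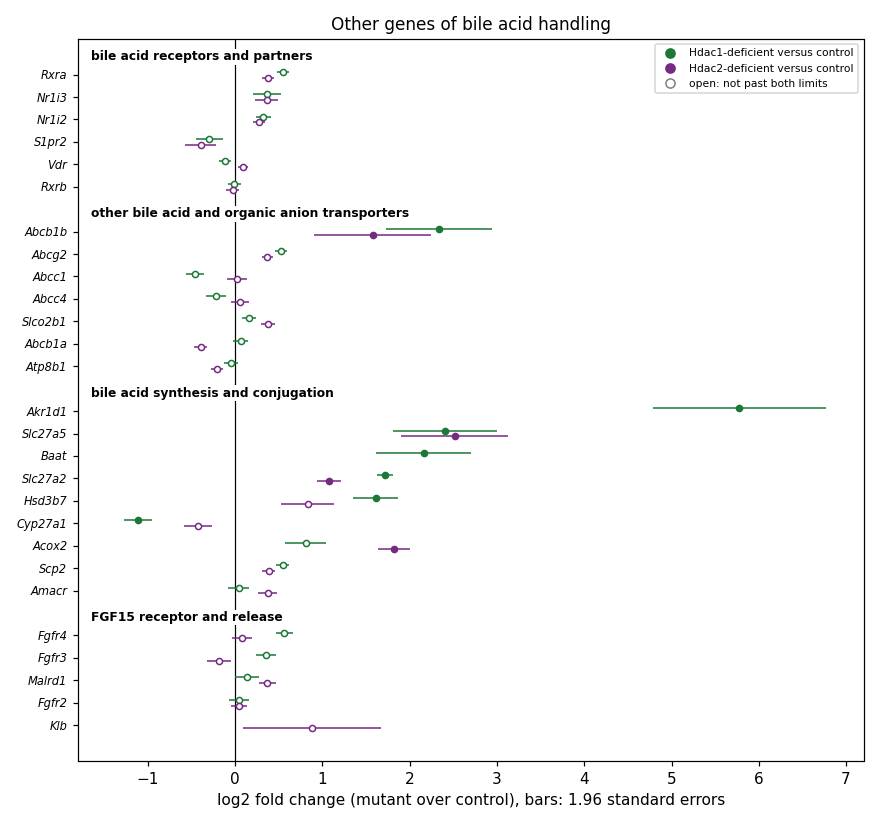
Log2 fold change against control of the tested genes of 4 lists, with bars for the 95% interval and filled points for genes past both the adjusted p and the 2-fold limit. In the synthesis and conjugation list 5 genes (Hdac1-deficient) and 3 genes (Hdac2-deficient) were called higher, the fitted value of Akr1d1 rests on 2 control counts, and no receptor or FGF15 receptor gene was called.

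The counts of the next lists stand beside 64.6% (Hdac1-deficient) and 62.3% (Hdac2-deficient) of all tested genes that passed the adjusted p. Among receptors and partners 3 of 6 tested genes rose and 2 fell in Hdac1-deficient and 4 rose and 1 fell in Hdac2-deficient enteroids, none by more than 2-fold (medians 0.16 and 0.18). Among other bile acid and organic anion transporters 3 of 7 rose and 2 fell in each mutant (medians 0.06 and 0.05). Abcb1b, a multidrug efflux pump, was called higher in both, from 0.265 ± 0.155 CPM to 1.37 ± 0.348 and 0.802 ± 0.189 CPM (log2 2.34 and 1.57, adjusted p = 1.7e-06 and 0.00042). For the receptor side of FGF15, 2 of 4 tested genes rose in Hdac1-deficient enteroids, and in Hdac2-deficient enteroids 1 of 5 rose and 1 fell. Fgfr4, the hepatic FGF15 receptor, rose in Hdac1-deficient enteroids (19.8 ± 1.05 to 29.0 ± 1.07 CPM, log2 0.56, adjusted p = 1e-08), stood at 20.8 ± 1.48 CPM in Hdac2-deficient enteroids (log2 0.08, adjusted p = 0.27), and differed directly by 0.48 (adjusted p = 5.3e-08). Its coreceptor Klb had 3 to 11 counts per control library. Among 13 transcription factors of bile acid genes 7 rose and 1 fell in Hdac1-deficient enteroids and 7 rose and 2 fell in Hdac2-deficient enteroids, and Maf alone was called. Hnf4a, an enterocyte regulator, changed by log2 0.09 (adjusted p = 0.017) and 0.17 (adjusted p = 2e-05).

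The lists were closed by 4 other genes that FXR is known to regulate in the intestine and by the receptor of ileal vitamin B12 uptake. Of the 4 FXR-regulated genes 3 rose and 1 fell in Hdac1-deficient and 2 rose and 2 fell in Hdac2-deficient enteroids. Ang, an angiogenin, named here after its values were seen, rose from 6.23 ± 0.452 to 8.21 ± 0.758 CPM in Hdac1-deficient enteroids (log2 0.41, adjusted p = 0.00045), fell to 4.9 ± 0.335 CPM in Hdac2-deficient enteroids (log2 -0.34, adjusted p = 0.0031) and differed directly by 0.75 (adjusted p = 1.7e-07). Nos2, the inducible nitric oxide synthase, had 0 to 3 counts in control libraries, 279 to 365 in Hdac1-deficient and 375 to 459 in Hdac2-deficient libraries. Its ratio to control was 242 (exact 95% counting interval 103 to 745) and 396 (169 to 1220). Il18, an epithelial cytokine, rose from 9.39 ± 0.506 CPM to 41.4 ± 2.37 and 44.6 ± 4 CPM (log2 2.15 and 2.26, adjusted p = 7.1e-17 and 8.9e-17). Car12, a carbonic anhydrase, fell from 140 ± 3.18 to 56 ± 2.61 CPM in Hdac1-deficient enteroids (log2 -1.31, adjusted p = 2.4e-16) and to 101 ± 1.68 CPM in Hdac2-deficient enteroids, by less than 2-fold. Amn, a subunit of the vitamin B12 receptor, rose from 33.6 ± 0.894 to 62.1 ± 1.35 and 48.2 ± 2.46 CPM, and its partner Cubn had 0 to 4, 8 to 17 and 4 to 14 counts per library in control, Hdac1-deficient and Hdac2-deficient enteroids.

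Likeness of pattern was measured as the mean absolute difference between control-centred log2 CPM values over the 12 libraries, among 10792 genes for each member but Slc10a2 (10793). Slc44a4 (0.038) and Fam3b (0.04) were most like Nr1h4, and Galt (0.053) and Slc26a6 (0.066) most like Slc51a. Slc51b had Slc27a2 (0.118), the acyl-CoA synthetase described above, and Tmem86a (0.13). Abcc3 had Heph (0.048) and Ablim1 (0.052), and Abcc2 had Rac3 (0.074) and Mtmr7 (0.091). Slc10a2 had Edn1 (0.122) and Tor3a (0.146), and Fgf15 had Slk (0.131) and Prdm10 (0.134). The nearest to Nr0b2, Smim1 and Tlr1, differed by 0.295 and 0.359 on average, more than the nearest of any other member. Both also rose in Hdac1-deficient and fell in Hdac2-deficient enteroids (log2 0.84 and -1.76 for Smim1, 0.87 and -2.61 for Tlr1). These distances also hold counting error, and Nr0b2 had 10 to 17 counts per Hdac2-deficient library.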

How the data were processed

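Poly(A) RNA was sequenced as directional paired-end libraries from 12 enteroid cultures, grouped by the genotype and replicate number of their labels. The authors aligned reads to GRCm38 with STAR (2.4.0f1 per the labels, bcl2fastq 1.8.4) and deposited whole-number counts per gene and library, 1 table per mutant with the same controls, leaving out genes whose counts summed to under 10. The counting program is not given in the sources used here. The deposited normalized score (a rescaled count per library) was not used, nor were the authors' columns of fold changes and p-values.

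Counts were tested with edgeR (4.0.16, R 4.3.3; TMM, filterByExpr, robust quasi-likelihood F test, Benjamini-Hochberg adjustment over all tested genes), each mutant against control on 8 libraries and the mutants against each other on all 12. CPM used TMM factors of 0.981 to 1.02. Positions and exon lengths came from GENCODE M21, promoters from RefSeq (7 of 9 genes matched, Fgf15 and Abcc3 not). Every member and, per list, up to 5 called genes with the largest changes were named, with Gata4, Rxra, Hnf4a, Hdac1 and Hdac2. Some genes were named outside this rule, among them Nr5a2, Fgfr4, Klb, Amn, Cubn, Muc2, Chga, Cyp27a1 and Ang. The members and lists were chosen with earlier results of these data known. On simulated counts 97.5%, 96% and 98.5% of 200 changed genes were recovered in the 3 comparisons, with 1, 0 and 0 false calls. The planted changes were all larger than the 2-fold limit and every gene had the same dispersion, so recovery of changes near the limit was not tested. No replicate pair held identical counts. Alternatives were DESeq2 (1.42.0), other size factors, filters and call limits, the replicate block, other sets of libraries and each library left out.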

Additional observations from a re-analysis of the deposited data

Results flagged for a closer look

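In Hdac1-deficient enteroids 1 library stood apart from the other 3 for Slc10a2, with 1.25 CPM in replicate 3 against 1.54 to 1.59 CPM. In Hdac2-deficient enteroids replicate 2 stood apart for Fgf15, with 3.79 CPM against 2.38 to 2.54 CPM. These were 2 of 32 groups of 4 libraries examined, and chance alone sets apart about 1 group in 20.

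The response to loss of Hdac1 differed from that to loss of Hdac2 by more than 2-fold, in edgeR's direct test, for Nr0b2 (log2 difference 3.02) among the members. Among the listed genes it did so for Akr1d1 (3.35), Baat (1.07), Acox2 (-1.02) and the tuft cell factor Pou2f3 (1.01).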

How the results depend on the processing

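Each of the 8 fold changes in each comparison kept its direction and its side of an adjusted p of 0.05 in all 15 alternative fits (360 values in all). With no limit on the fold change the members called higher and lower became 6 and 2 for Hdac1, the higher count became 5 for Hdac2, and they became 3 and 2 between the mutants. With each library left out the count called higher ranged from 2 to 3 for Hdac1 and from 1 to 3 for Hdac2, the lowest without control replicate 1, where Slc10a2 and Slc51b fell below the 2-fold limit. Over all alternatives Slc10a2 ranged from 0.90 to 1.14 and Slc51b from 0.96 to 1.14 (log2, Hdac2), and Nr0b2 from 0.90 to 1.08 (Hdac1). Without 1 library Fgf15 ranged from -0.34 to -0.06 (Hdac2). Ratios of member pairs with each library left out, chosen after seeing the data, ranged from 0.41 to 0.65, -0.16 to 0.01 and 0.48 to 0.72 (log2) for Slc51b over Slc51a and from 0.82 to 0.84, 1.99 to 2.02 and -1.18 to -1.16 for Abcc3 over Abcc2. Same-numbered libraries of different groups did not deviate together (0 of 12 correlations over 0.1, range -0.045 to 0.091), and with the replicate block the called counts were the same (2 higher for Hdac1, 3 higher and 2 lower for Hdac2, 1 higher between the mutants), with Nr0b2 at 0.97 and -2.03. Depth limits Fabp6, with at most 4 counts, and Nr0b2 in Hdac2-deficient enteroids, with 10 to 17.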

Other observations

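Markers of the secretory lineages are given as counts beside all tested genes, of which 32.7% rose and 31.9% fell in Hdac1-deficient and 31.4% rose and 30.9% fell in Hdac2-deficient enteroids. All 7 goblet cell genes rose in Hdac2-deficient enteroids, with sums of 1890 to 2110 CPM (control) and 2996 to 3223 CPM, with Clca1 (log2 2.13, adjusted p = 1.1e-21) and Zg16 (1.86, adjusted p = 9.5e-21) called. In Hdac1-deficient enteroids 3 rose and 2 fell, with a sum of 1938 to 2077 CPM. Zg16 (log2 1.36, adjusted p = 1.6e-12) and Clca1 (1.22, adjusted p = 2.3e-13) were called higher by edgeR there as well. In the direct edgeR test the Hdac1-deficient libraries were lower for 6 of the 7, against 23.7% of all tested genes, and Muc2 did not pass. Lyz1, a lysozyme of Paneth cells, rose in both (log2 1.26 and 1.16), and the summed Paneth markers went from 1377 to 1632 CPM in control to 2056 to 2197 and 2211 to 2337 CPM. Of 5 Paneth genes 1 rose and 1 fell in Hdac1-deficient enteroids, and 4 rose in Hdac2-deficient enteroids. Cck, an enteroendocrine hormone, rose in both mutants (log2 1.71 and 1.79). Of the 5 enteroendocrine genes 4 rose and 0 fell in Hdac1-deficient enteroids, and 3 rose and 1 fell in Hdac2-deficient enteroids. The gene that fell was Chga (log2 -0.18, edgeR adjusted p = 0.0013). Tuft cell genes summed to 4.96 to 5.56 (control), 4.4 to 6.51 (Hdac1-deficient) and 2.96 to 3.63 CPM (Hdac2-deficient), and 0 and 2 of the 3 fell. In the direct test 3 of the 5 enteroendocrine genes did not pass.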
